A study of Mus musculus with 4 samples.

Results

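Glycolysis and its response to low oxygen were described here through 34 genes of the 27998 gene rows in the count matrices. The genes were listed by name: 18 encode glucose and lactate transporters and the enzymes of glycolysis, 2 encode switch enzymes that set how fast sugar enters and leaves the pathway (Pfkfb3 and Pdk1), and 14 are well known to be induced in hypoxia. Each of the 34 symbols matched 1 row. Glycolysis splits glucose to pyruvate and yields ATP without oxygen, and the pyruvate is then either reduced to lactate and exported or burned in mitochondria. When oxygen is scarce the HIF transcription factors escape degradation, bind short sites in promoters and enhancers and raise glucose transporters, glycolytic enzymes, lactate export and a set of stress genes. In tumours the same programme also rises in activated lymphocytes, whose growth draws on glycolysis, and in macrophages of poorly perfused regions, which often express arginase (Arg1).

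The cells were CD45-positive immune cells, sorted alive from subcutaneous B16F10-OVA tumours, a mouse melanoma line that carries the model antigen ovalbumin. The hosts were C57BL/6 mice that were either wild-type or had a conditional deletion of the microRNA miR-155 restricted to T cells (labelled miR-155 TCKO and named knockout here), and tumours were taken at day 9 or day 12. Cells of several tumours were pooled for each genotype and day and profiled as 1 single-cell 3′ RNA library, so there were 4 libraries and no replicate of any of them. The labels do not name the driver of the deletion and place it in T cells alone, and day cannot be told apart from the preparation of that day. Values for the 4 libraries are given throughout in the order wild-type day 9, knockout day 9, wild-type day 12 and knockout day 12.

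The libraries held 1778, 3749, 3684 and 2059 cell barcodes with 18783490 to 33902064 unique transcript counts (UMIs) each, and 66 barcodes occurred in more than 1 library. Mir155hg, the host transcript of miR-155, had 94, 0, 20 and 0 UMIs in T cells, and 3 UMIs, the limit that a count of 0 allows, would be 0.63 and 2.75 in the knockouts as counts-per-million (CPM), the UMIs of a gene scaled to a fixed total of UMIs of its class or subset. Because reads come from the transcript's end, this count need not lie within the deletion. Cells were named by their markers, so that a class is high in its own markers by construction. The 5 classes that reached 50 cells in all 4 libraries were CD8 T cells (692, 374, 229 and 57 cells), other T cells without a regulatory, CD4 or CD8 call (95, 329, 208 and 121), NK cells (193, 237, 477 and 268), type 2 conventional dendritic cells (cDC2; 52, 109, 170 and 90) and monocytes or macrophages (236, 1712, 1710 and 886). The smaller classes (regulatory and CD4 T cells, and type 1, plasmacytoid and mature dendritic cells) are described without a test. All levels are in CPM. A 3′ tag count does not grow with transcript length, so levels of different genes were set side by side on that scale. Intervals are 95% and cover counting error only.

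Promoters of the members were examined for the core letters to which HIF is known to bind, ACGTG or GCGTG on either strand; matches may overlap, as when CACGTG holds ACGTG on both strands. RefSeq promoters (GRCm38.p6, 250 bases before to 50 after the start) were matched for 32 of the 34 genes, with 47 promoters in all. A match stood in 39 of the 47 (83.0%), against 14380 of all 32851 promoters (43.8%), and 30 of the 47 (63.8%) held at least 2 against 20.6% of all. By role, 14 of 15 promoters of hypoxia-induced genes, 22 of 28 of glycolytic genes and 3 of 4 of the switch enzymes held a match. Counted by gene, 30 of 32 had a match in at least 1 promoter, against 46.7% of all genes. Gpi1 and Tpi1 had none. A match is a description of the letters and not a measured binding site. Stretches of 100 bases are shown for 6 chosen genes that are named again below. Each stretch was placed where it held the most matches in the 250 bases before a start, outside exons. They run 5′ to 3′ on the gene's strand, with the matched letters in capitals:
Bnip3, chr7:138909537-138909636, minus strand: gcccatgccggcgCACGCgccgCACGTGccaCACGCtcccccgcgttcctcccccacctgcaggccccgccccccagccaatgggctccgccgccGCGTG
Ero1l, chr14:45318603-45318702, minus strand: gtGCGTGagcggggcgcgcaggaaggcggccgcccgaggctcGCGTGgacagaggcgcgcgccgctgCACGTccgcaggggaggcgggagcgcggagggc
P4ha1, chr10:59323104-59323203, plus strand: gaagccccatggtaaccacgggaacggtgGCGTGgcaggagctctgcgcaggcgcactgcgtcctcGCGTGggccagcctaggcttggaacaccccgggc
Pgk1, chrX:106186912-106187011, plus strand: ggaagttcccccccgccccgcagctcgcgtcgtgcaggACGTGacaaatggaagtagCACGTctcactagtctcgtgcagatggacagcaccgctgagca
Ldha, chr7:46845704-46845803, plus strand: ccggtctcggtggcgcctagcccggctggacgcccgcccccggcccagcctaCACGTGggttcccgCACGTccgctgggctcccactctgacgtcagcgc
Pdk1, chr2:71873099-71873198, plus strand: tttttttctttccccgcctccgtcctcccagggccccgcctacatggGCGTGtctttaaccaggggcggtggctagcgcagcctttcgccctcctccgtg
The Bnip3 stretch holds 5 matches, Ero1l and Ldha 3 each, P4ha1 and Pgk1 2 each and Pdk1 1. The 3 Ldha matches are 2 that overlap in CACGTG and 1 more further on.

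Some members cannot be counted cleanly, because near-identical copies exist elsewhere in the genome. Of the 50-base windows in the last 400 bases of the transcript, 87.75% were also found in other genes for Gapdh, 83.76% for Eno1 and 61.25% for Mif, so levels of these 3 genes are uncertain. The share was 5.413% for Gpi1, 1.709% for Aldoa and 0 for the other members.

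The first question was how the members differed between the 5 tested classes. Among these 5, monocytes or macrophages had the most members called higher: 19 of 31 members tested were higher than the mean of the other 4 classes and 4 were lower (edgeR's quasi-likelihood test on class sums with library as a block, Benjamini-Hochberg adjusted over 9007 genes). Among all genes tested, 31.9% were called higher and 33.2% lower in this class, and 65.1% in either direction. Hypoxia-induced genes had the larger median, with 8 of 12 higher, 1 lower and a median log2 difference of 1.24, against 0.47 for the 17 glycolytic genes and -0.05 over all genes. Adm, P4ha2 and Pfkm, the muscle phosphofructokinase, were too low to be tested between classes. Other T cells were the opposite, with 2 members higher and 15 lower (33.9% of all genes called, 19.2% higher and 14.7% lower), 11 of the lower ones glycolytic. That class was named by missing calls, and its median was 4625, 3835, 3042 and 3685 UMIs per cell. The part of this depth was not tested. CD8 T cells had 8 higher and 5 lower, against 42.8% of all genes called (24% higher, 18.8% lower). NK cells had 4 and 4, against 36.6% (19% and 17.6%), and cDC2 6 and 2, against 44.6% (21.8% and 22.8%). Leaving out 1 library in turn gave 7 to 10 calls in CD8 T cells, 5 to 7 in NK cells and 5 to 9 in cDC2. The lowest count in each of these 3 classes was the one without the wild-type day 12 library; in monocytes or macrophages the counts were 21 to 26 and in other T cells 14 to 19.

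**Figure D1:**
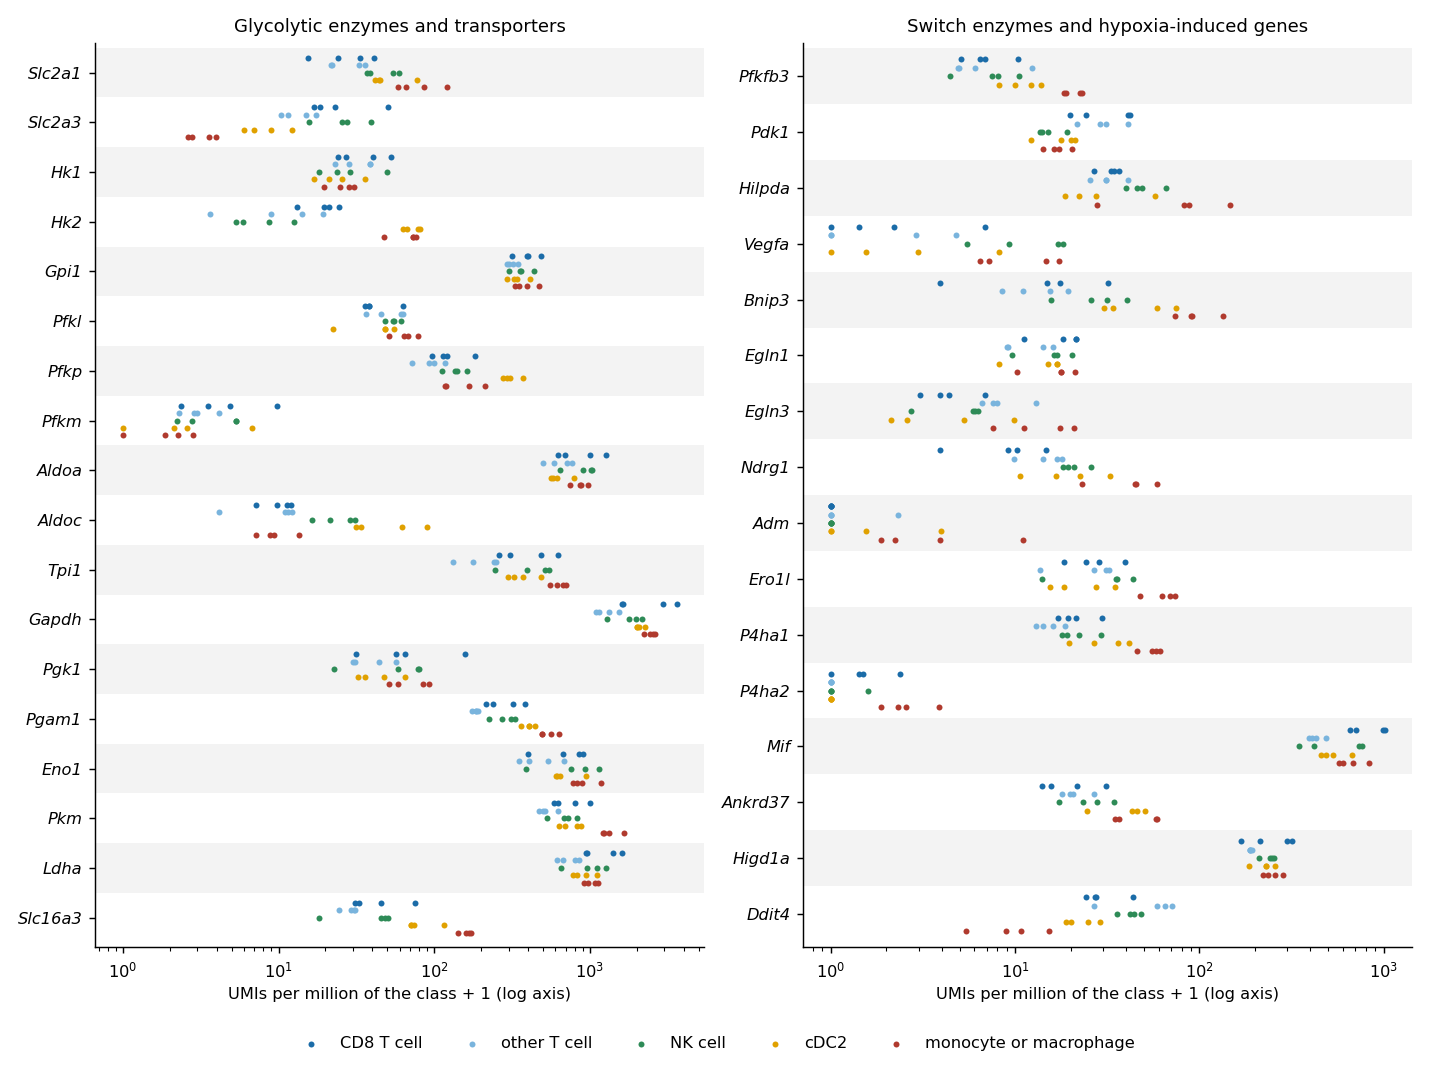
Level of each member (CPM plus 1, log axis) in the 5 tested classes, with 1 point per library; the left panel holds glycolytic enzymes and transporters and the right panel switch enzymes and hypoxia-induced genes. Monocytes or macrophages lie to the right for Slc16a3 and Pfkfb3 and, with slight overlap with cDC2, for Bnip3. For Hk2 they lie to the right together with cDC2, and for Slc2a3 far to the left.

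Transcripts of the glucose transporters differed between the classes. Slc2a3 (GLUT3, a high-affinity neuronal and lymphocyte glucose transporter; chr6:122727809-122801640, mm10) was at 49.7, 16.0, 21.9 and 17.5 CPM in CD8 T cells and at 38.5, 14.7, 24.4 and 26.5 in NK cells. In monocytes or macrophages it was at 1.76, 2.56, 1.62 and 2.97, below every value of CD8 T cells and NK cells. The log2 difference from the other classes was 1.61 ± 0.22 (SE) in CD8 T cells (adjusted p = 7.11e-06), 1.43 ± 0.21 in NK cells (2.54e-05) and -2.66 ± 0.24 in monocytes or macrophages (1.06e-08). Slc2a1 (GLUT1, the widely expressed basal transporter) stood the other way, at 65.3, 120.5, 57.5 and 84.8 in monocytes or macrophages against 39.9, 23.2, 32.2 and 14.6 in CD8 T cells, with no overlap between the 2 classes. Its log2 difference was 1.13 ± 0.16 in monocytes or macrophages (adjusted p = 5.09e-06).

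Hexokinase, which traps glucose in the cell, also differed by isozyme. Hk2, the inducible hexokinase (chr6:82725025-82774454), was at 79.8, 78.1, 62.2 and 66.3 in cDC2 and at 71.9, 75.4, 46.6 and 72.0 in monocytes or macrophages, against 11.6, 4.31, 4.88 and 7.65 in NK cells. The NK cell values lay below all values of cDC2 and of monocytes or macrophages. The log2 difference was 2.04 ± 0.18 in cDC2 (adjusted p = 1.23e-08), 1.90 ± 0.15 in monocytes or macrophages (1.81e-09) and -2.22 ± 0.25 in NK cells (8.74e-07). Hk1, the constitutive isozyme, was at 51.8, 39.6, 23.3 and 26.2 in CD8 T cells and was called there at 0.40 ± 0.13 (adjusted p = 0.0195), a call lost in DESeq2 and without the wild-type day 9 library.

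Counted as shares of each gene family, the isozymes differed between classes. Slc2a3 made up a mean of 38.4% (30.9 to 48.2 over the 4 libraries) of glucose transporter UMIs in CD8 T cells and 25.1% in NK cells but 1.63% (1.32 to 2.15) in monocytes or macrophages. Hk1 made up 62.2% (52.9 to 72.3) of hexokinase UMIs in CD8 T cells and 61.3% in NK cells, against 14.4% (11.7 to 17.8) in monocytes or macrophages. The latter divided the rest between Hk2 at 39.4% and Hk3, a myeloid isozyme, at 46.1%. In cDC2, Hk2 alone made up 63.8% (56.2 to 77.0). The Hk1 share was also 75.2% in plasmacytoid and 70.2% in mature dendritic cells, on 59 and 48 hexokinase UMIs. The ranges of CD8 T and NK cells and of monocytes or macrophages did not overlap for Slc2a3 or Hk1. These shares were not tested beyond the fits of the single genes.

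**Figure D2:**
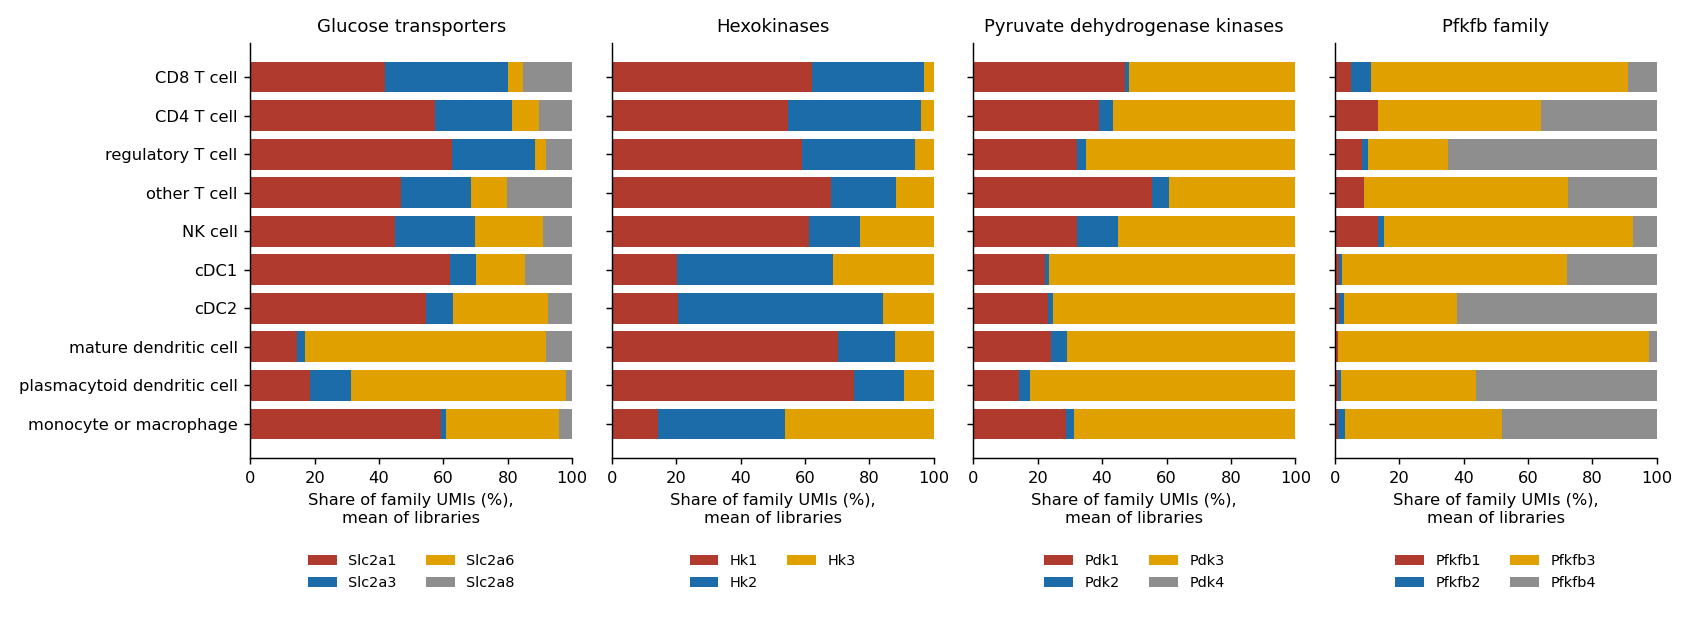
Share of each gene family's UMIs taken by its members (percent, mean of 4 libraries) in each cell class. Slc2a3 takes 38.4% in CD8 T cells and 1.63% in monocytes or macrophages, Hk2 63.8% in cDC2 and Pfkfb3 96.6% in mature dendritic cells.

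Dendritic cell classes stood apart from one another at the middle steps. Pfkp, the platelet-type phosphofructokinase that commits sugar to glycolysis, was at 276, 368, 290 and 304 in cDC2, with a log2 difference of 1.33 ± 0.11 (adjusted p = 1.03e-08), and made up 87.5% of phosphofructokinase UMIs there. In type 1 conventional dendritic cells, which were not tested, its mean level was 388 (347 to 432) and its share 91.9%. Its lowest means were in mature and plasmacytoid dendritic cells, at 66.5 and 77.6. Aldoc, the aldolase isozyme best known from brain, was at 60.7, 88.2, 30.3 and 32.6 in cDC2 against 8.38, 12.5, 7.87 and 6.17 in monocytes or macrophages. Its log2 difference was 2.23 ± 0.23 in cDC2 (adjusted p = 1.88e-07), and its mean level was 70.3 in plasmacytoid dendritic cells. Mature dendritic cells had the lowest mean Aldoc level, 6.45. Pgam1, phosphoglycerate mutase, was also called higher in cDC2 at 0.42 (adjusted p = 0.00591).

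Most genes from the triose step to lactate had high levels in every class, Pgk1 being lower. Gapdh, which makes NADH at the triose step, was at 2223, 2538, 2602 and 2439 in monocytes or macrophages and at 3600.5, 1603, 2937 and 1635 in CD8 T cells, whose wild-type libraries were above and whose knockout libraries were below every monocyte or macrophage value. Its log2 difference was 0.45 in monocytes or macrophages and 0.42 ± 0.14 in CD8 T cells (adjusted p = 0.018), the latter 0.12 and no longer called without the wild-type day 9 library. Pkm, pyruvate kinase, was at 1325, 1649, 1237 and 1218 in monocytes or macrophages, a log2 difference of 1.04 ± 0.12 (adjusted p = 2.52e-07). Ldha, which turns pyruvate into lactate, was at 1605, 957, 1408 and 944 in CD8 T cells, a difference of 0.50 ± 0.13 (adjusted p = 0.00436) that was 0.27 and not called without wild-type day 9. Slc16a3 (MCT4, which exports lactate) was at 172, 167, 141 and 159 in monocytes or macrophages, above all values in NK cells (44.3, 17.2, 47.6 and 49.4). Its log2 difference in monocytes or macrophages was 1.83 ± 0.15 (adjusted p = 2.61e-09), and it made up 97.6% of UMIs of its transporter family there. Pgam1 at 0.98, Tpi1 at 0.95, Eno1 at 0.52, Pfkl, the liver-type phosphofructokinase, at 0.50 and Pgk1 at 0.47 were also called higher in that class. Gpi1, Aldoa, Ldha, Pfkp, Hk1, Egln1, Mif and Higd1a, a small mitochondrial protein, were not called there, at -0.16 to 0.25.

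The switch enzymes went apart. Pfkfb3 makes the sugar phosphate that activates phosphofructokinase, and it was at 22.1, 17.3, 18.0 and 21.5 in monocytes or macrophages, a log2 difference of 1.501 ± 0.14 (adjusted p = 1.64e-08). Its highest level was in mature dendritic cells, which were not tested: 90.0, 127.5, 108 and 97.1 (31, 65, 85 and 140 UMIs), above every library of every other class. There Pfkfb3 made up 96.6% (93.9 to 98.8) of the UMIs of its isozyme family, against 49.0% in monocytes or macrophages, where Pfkfb4 took 48.0%. Pdk1 restrains the entry of pyruvate into mitochondria by phosphorylating pyruvate dehydrogenase. It was higher in CD8 T cells (0.64 ± 0.19, adjusted p = 0.00853) and other T cells (0.77 ± 0.21, 0.00845) and lower in NK cells (-0.63, 0.0233) and in monocytes or macrophages (-0.41 ± 0.17, 0.0373). Each of these 4 calls was lost when single libraries were left out, with CD8 T cells at 0.39 without knockout day 9, and that in monocytes or macrophages also with DESeq2.

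Among hypoxia-induced genes, Bnip3, which drives removal of mitochondria, was at 72.3, 89.0, 89.5 and 133.3 in monocytes or macrophages and at 30.9, 13.9, 16.4 and 2.91 in CD8 T cells. All values of the former lay above all of the latter, and the log2 difference in monocytes or macrophages was 1.98 ± 0.19 (adjusted p = 2.43e-08). Hilpda, which blocks lipid breakdown and so fills lipid droplets, was at 26.9, 86.9, 81.0 and 145.0 in monocytes or macrophages, a difference of 1.22 ± 0.20 (3.22e-05). Vegfa, the angiogenic growth factor, was at 6.18, 16.3, 5.45 and 13.7 in monocytes or macrophages and at 16.0, 17.2, 4.48 and 8.24 in NK cells. It was called higher in both, at 2.13 ± 0.33 (adjusted p = 1.4e-05) and 2.07 ± 0.40 (0.000364). Ndrg1, Egln3 (a prolyl hydroxylase that marks HIF for degradation), P4ha1 (a collagen prolyl hydroxylase), Ero1l (an oxidase of the endoplasmic reticulum) and Ankrd37 were also higher in monocytes or macrophages, by 0.91 to 1.51.

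Other hypoxia-induced genes were higher in particular lymphocyte classes. Mif, a cytokine, was at 991, 654, 1010 and 705 in CD8 T cells, with a log2 difference of 0.70 ± 0.13 (adjusted p = 0.000314). Its means in NK cells (565) and other T cells (428) were below that in monocytes or macrophages (672). Ddit4, an inhibitor of mTOR signalling that glucocorticoids and other stresses also induce, was at 69.6, 25.9, 57.6 and 63.9 in other T cells and at 4.41, 9.79, 7.87 and 14.3 in monocytes or macrophages. Every value in other T cells was above every one in monocytes or macrophages, at differences of 1.16 ± 0.23 (adjusted p = 0.000632) and -1.82 ± 0.22 (4.16e-07). Naming classes by cluster lowered the difference in other T cells to 0.30, which was not called. Under that naming the CD8 T cell differences of Bnip3 and Vegfa, called lower at -0.71 and -2.10, became 0.20 and 0.28.

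The small classes held the extremes of several members. Regulatory T cells (59, 37, 42 and 18 cells) had the highest mean sum of the glycolytic genes, 10424 CPM (9446 to 12186), against 8796 (8081 to 9463) in monocytes or macrophages, 7849 in CD4 T cells, 7540 in CD8 T cells and 4664 in other T cells. The ranges of regulatory T cells and of monocytes or macrophages overlapped. Gapdh averaged 3082 (2614 to 3649) in them, above every library of monocytes or macrophages, the next class by mean. Ddit4 was at 64.0, 90.3, 213 and 204 in regulatory T cells, and Slc16a3 at a mean of 173 (143 to 222), overlapping monocytes or macrophages. In mature dendritic cells Ndrg1 was at 136, 178, 135 and 127, clear of type 1 dendritic cells, the next class at a mean of 50.04. P4ha2, a collagen prolyl hydroxylase subunit, was at 8.71, 13.7, 22.9 and 4.86 there on 35 UMIs, against a mean of 1.65 in monocytes or macrophages, the next immune class.

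Within monocytes or macrophages, the members were graded with Arg1, the arginase gene named above. Cells were binned by their Arg1 UMIs at 0, 1 to 2, 3 to 9 and 10 or more; the bins were chosen after the data were seen, and cells of 1 library are no replicates, so no test is given. At least 3 Arg1 UMIs were seen in 1, 131, 135 and 144 cells, and wild-type day 9 was not used. Hilpda was higher from bin to bin in each of the other libraries, from 48.8 through 88.7 and 267 to 505 CPM in knockout day 9. In wild-type day 12 its level was 30.4, 89.0, 503 and 885, and in knockout day 12 it was 46.4, 97.4, 425.5 and 695. Gapdh was graded less steeply, from 2313 through 3029 and 4858 to 6609.5 in wild-type day 12.

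**Figure D3:**
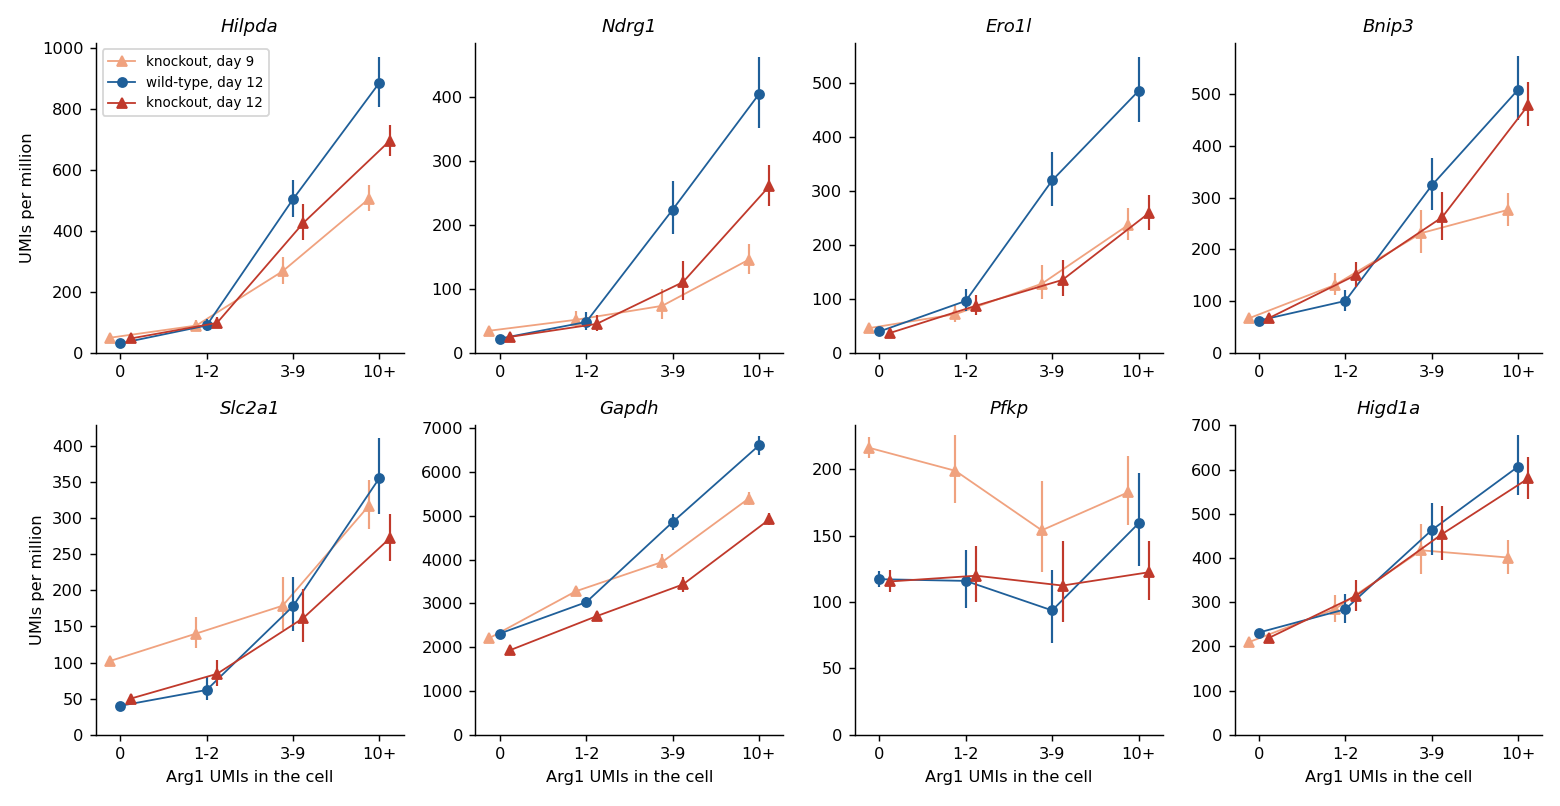
Levels of 8 members (CPM) in monocytes or macrophages binned by Arg1 UMIs, in the 3 libraries with enough Arg1 cells; bars are 95% Poisson intervals. Hilpda goes from 30.4 to 885 in wild-type day 12, and Pfkp stays nearly flat.

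Cells with at least 3 Arg1 UMIs against cells with none had 13 of 13, 14 of 14 and 14 of 14 counted hypoxia-induced genes at least 1.5-fold higher in knockout day 9, wild-type day 12 and knockout day 12. The glycolytic genes numbered 14 of 18, 16 of 17 and 16 of 17. Among all genes 11.7%, 12.9% and 7.9% were that much higher. The median log2 ratio was 1.83, 3.21 and 2.59 for hypoxia-induced genes and 1.04, 1.30 and 1.11 for glycolytic genes, against -0.07, -0.13 and -0.13 over all genes. No enzyme of the citric acid cycle (14 genes) or of the pentose phosphate pathway (7 genes), the neighbouring routes of sugar use, was 1.5-fold higher in any of the 3 libraries.

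The largest ratios were those of hypoxia-induced genes. Hilpda was 8.72-fold (7.84 to 9.70), 22.8-fold (20.1 to 25.8) and 13.1-fold (11.5 to 14.96) higher in Arg1 cells of the 3 libraries. Adm, the vessel-dilating peptide adrenomedullin, was 17.9-, 26.4- and 28.5-fold higher, and Vegfa 8.19-, 31.6- and 12.0-fold. These ratios rest on few counts: Adm had 175 and Vegfa 623 UMIs in all libraries over 10 classes. Bnip3 was 3.95-, 6.70- and 6.07-fold higher, and Ddit4 2.96-, 27.3- and 7.10-fold. Of the enzymes, Tpi1, which interconverts the triose phosphates, was 2.79-, 3.27- and 2.86-fold higher and Ldha 2.30-, 2.47- and 2.17-fold. Slc2a1 went from 102 to 271, 40.1 to 266 and 50.04 to 236. Pfkp was at 0.801 (0.706 to 0.906), 1.08 and 1.03. Pdk1, low in the class as a whole, was 2.04-, 3.07- and 3.43-fold higher. Melanoma-marker UMIs went from 14.0 to 46.1 CPM between the first and last bins in wild-type day 12 and from 4.88 to 7.46 in knockout day 9. The macrophage transcripts C1q and Lyz2 went from 25229 to 13411 in wild-type day 12, and the part of either in the result was not tested. Cell by cell, at 3000 UMIs each, the glycolytic sum and the hypoxia sum without Mif and Higd1a had Spearman correlations of 0.46, 0.51, 0.48 and 0.56 over 236, 1712, 1640 and 857 cells, which share the library and the gate.

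The second comparison was knockout against wild-type, fitted over both days for each class with day as a term. In CD8 T cells, Pdk1 rose and 5 glycolytic genes fell in the knockout: 6 of 29 members tested were called, against 7.83% of all genes (3.79% higher, 4.04% lower), and 16 had an unadjusted p under 0.05. The members' median log2 fold change was -0.52 (glycolytic -0.55, hypoxia-induced -0.49) against 0.01 over all genes. Taken by day, the hypoxia-induced median log2 ratio was -0.73 at day 9 on 11 genes. It was 0.10 with classes named by cluster, where 14 genes had enough UMIs. Within PD-1 cells it was 0.13 on 11 genes, from 309 wild-type and 29 knockout cells. With 1 residual degree of freedom among the libraries, the calls turned on the settings. None was left with DESeq2, with doublets kept, without the day term or without naive-like cells, the last on few knockout cells. Tpi1 and Gapdh alone were left with scaling to total UMIs. With classes named by cluster, Gapdh, Tpi1, Pgk1 and Slc16a3 were not called, and Pgk1 was at -0.68.

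Pdk1 (chr2:71873224-71903858) was at 18.9, 40.05, 23.3 and 40.8 CPM in CD8 T cells, higher in both knockout libraries than in both wild-type ones. Its log2 fold change was 1.12 ± 0.28 (edgeR adjusted p = 0.0182), and the ratio was 2.12 (1.64 to 2.73) at day 9 and 1.75 (0.869 to 3.35) at day 12. Gapdh, at the values given above, fell by 0.90 ± 0.23 on the log2 scale (adjusted p = 0.0209), with ratios of 0.445 (0.431 to 0.460) and 0.557 (0.509 to 0.608). Tpi1 was at 623, 261, 486 and 306, and fell by 0.87 ± 0.22 (0.0173). Both genes were below both wild-type libraries in each knockout library.

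The other calls leaned on day 9. Pgk1, phosphoglycerate kinase (chrX:106187100-106203699), was at 157, 30.4, 64.3 and 55.4 and fell by 1.53 ± 0.34 (adjusted p = 0.00796), but its ratio was 0.193 (0.151 to 0.245) at day 9 and 0.861 (0.496 to 1.42) at day 12. Slc2a3, at the levels given above, fell by 1.22 ± 0.34 (0.0327), with ratios of 0.322 (0.225 to 0.449) and 0.798 (0.273 to 1.94). Slc16a3 was at 74.2, 29.9, 44.5 and 32.1 and fell by 0.95 ± 0.27 (0.0372), with ratios of 0.404 (0.312 to 0.515) and 0.721 (0.343 to 1.38). For each of these 3 genes the day 12 interval included no difference. Bnip3 was at -1.15 (adjusted p = 0.0707) and Aldoa at -0.68 (0.0681), and neither was called. The other 21 members tested were at -0.91 to 0.29 without a call, and Aldoc alone of them was above 0; Adm, Egln3, P4ha2, Pfkm and Vegfa were too low to be tested.

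Pgk1 was low in 1 library across cell types. It was lower in knockout day 9 than in wild-type day 9 in 9 of 10 classes, with a median ratio of 0.48, and higher in knockout day 12 than in wild-type day 12 in 9 of 10 (median 1.69). Eno1, enolase, showed the same: lower in 9 of 10 classes at day 9 (median 0.83) and higher in 9 at day 12 (1.30). Egln1, another HIF prolyl hydroxylase, was lower at day 9 in 8 of 10 (median 0.52). The part of the library in the Pgk1 fall of CD8 T cells was not tested.

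**Figure D4:**
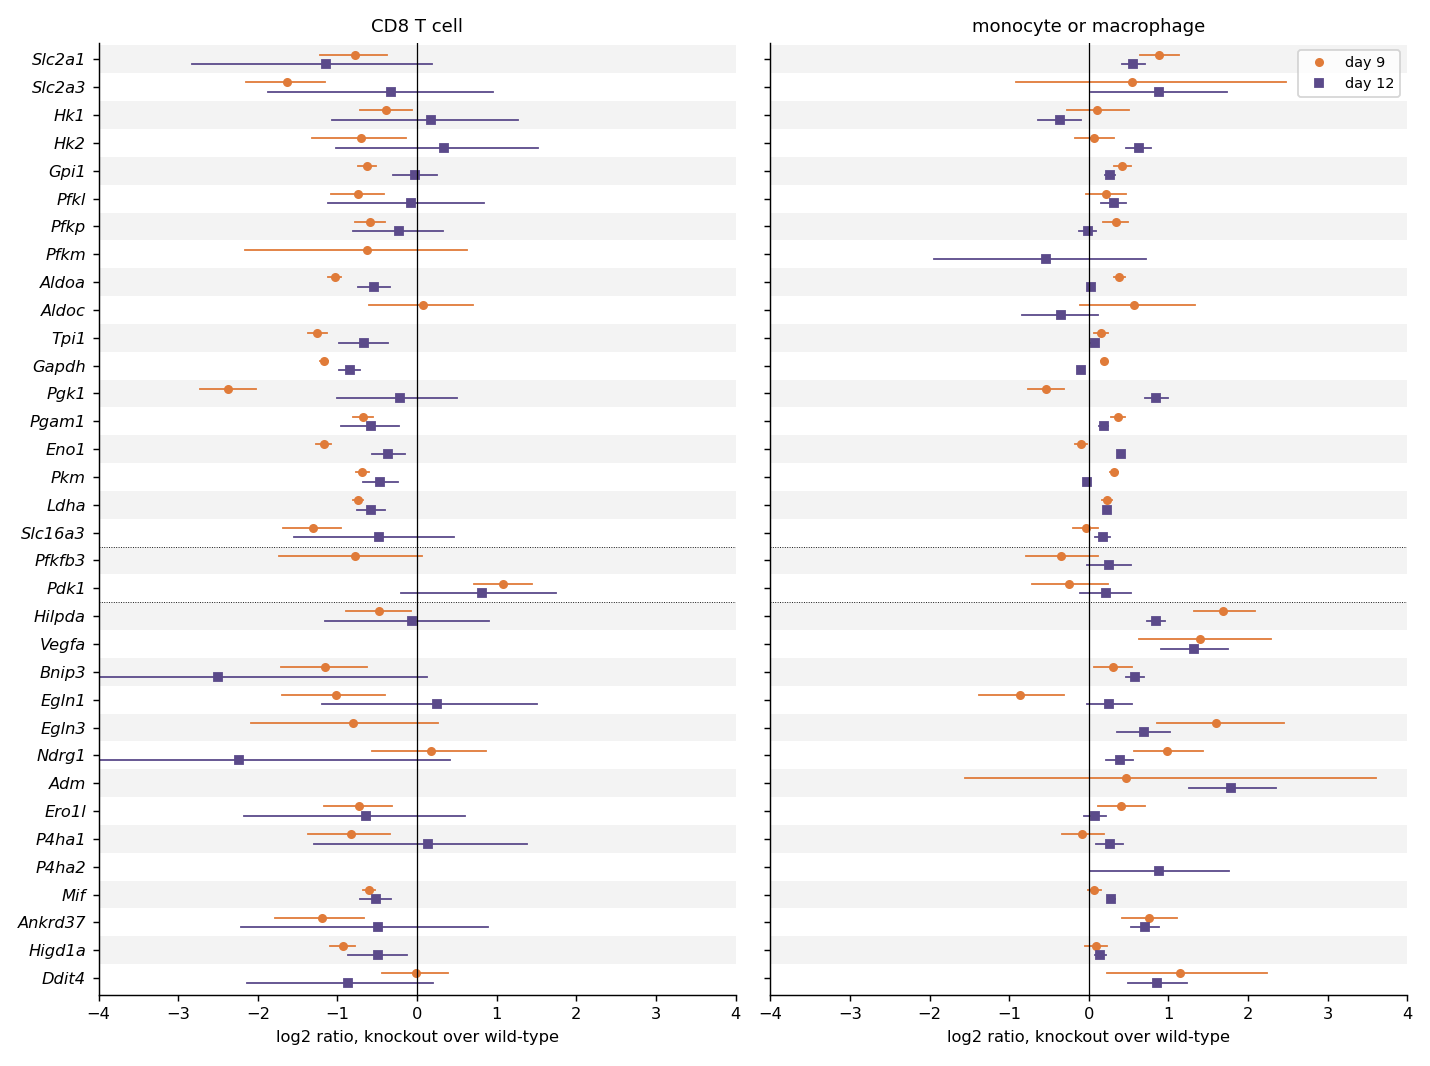
Log2 ratio of knockout to wild-type for each member at day 9 and day 12 in CD8 T cells and in monocytes or macrophages, in 3 role groups. The axis is cut at 4 on either side, and genes with under 20 UMIs in the pair or none in a library are not drawn. CD8 T cells lie below 0 at day 9 for most members and above 0 for Pdk1.

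The CD8 T cells of the 4 libraries were of different makeup. By markers, 284, 13, 42 and 6 cells were cycling, 309, 29, 54 and 2 expressed PD-1 and related receptors without cycling, and 67, 270, 81 and 41 were naive-like. Naive-like cells were thus most of the knockout cells and few of the wild-type day 9 cells; the thresholds were set after the data were seen. The glycolytic sum was 4133, 3537, 3767 and 3562 CPM in naive-like cells against 11546, 11325, 12201 and 10442 in cycling cells (the last on 6 cells). In PD-1 cells it was 9655, 10488 and 9725 in the first 3 libraries. The values in naive-like cells lay below all of these values. Over the whole class the sum was 10519, 5338, 8562 and 5741, beside cell-cycle markers at 1245, 182.5, 821 and 297 and a median of 12103, 4916, 4673 and 4279 UMIs per cell.

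In wild-type day 9, 15 of 18 glycolytic genes and 10 of 11 hypoxia-induced genes were at least 1.5-fold higher in cycling than in naive-like cells, against 33.2% of all genes. At wild-type day 12 the glycolytic count was 13 of 13, against 39.4%. PD-1 cells gave 16 of 17 (27.3% of all genes) and 12 of 12 (29.1%) for the glycolytic genes in the 2 wild-type libraries. Tpi1 was 4.44-fold (3.50 to 5.73) higher in cycling cells at day 9 and 7.48-fold (5.43 to 10.6) at day 12, and Gapdh 3.61-fold (3.29 to 3.97) and 3.62-fold (3.27 to 4.02). Gpi1, which turns glucose phosphate into fructose phosphate, differed least of the enzymes named here at day 9, at 1.24-fold (1.06 to 1.47).

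Pdk1 had the opposite order of most other members. It was at 29.3, 51.5, 38.4 and 54.9 in naive-like cells (12, 78, 14 and 11 UMIs) and at 17.6, 12.3, 17.8 and 19.6 in cycling cells (108, 3, 10 and 2 UMIs), so its level in naive-like cells was above that in cycling cells in every library. The counting intervals in naive-like cells, 15.2 to 51.3, 40.7 to 64.3, 21.0 to 64.5 and 27.4 to 98.2, overlapped between genotypes. Without naive-like cells the Pdk1 fold change was 0.12, that of Slc16a3 -0.08, that of Tpi1 -0.24 and that of Gapdh -0.45. Slc2a3 was at -0.90 and Pgk1 at -1.07, and none of these genes was called. That fit held 6 cycling, 2 PD-1 and 8 other CD8 T cells in knockout day 12, fewer than were asked of a tested class. The part of this low cell number in the lost calls was not tested. Within PD-1 cells the day 9 median of the glycolytic genes was 0.07, and within cycling cells 0.02, against -0.74 over the whole class, where 15 of 18 were at least 1.5-fold lower (23.1% of all genes). The macrophage transcripts C1qa, C1qb, C1qc and Lyz2, all detected in each library, summed to 94.4, 738, 373 and 1198 CPM in the CD8 T cells, and dissociation or stress transcripts to 605, 1240, 825 and 1460, both higher in the knockouts; their part in the result was not tested. Jun, a stress gene of that list, rose by 2.10 ± 0.21 in the knockout (edgeR adjusted p = 5.2e-06).

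**Figure D5:**
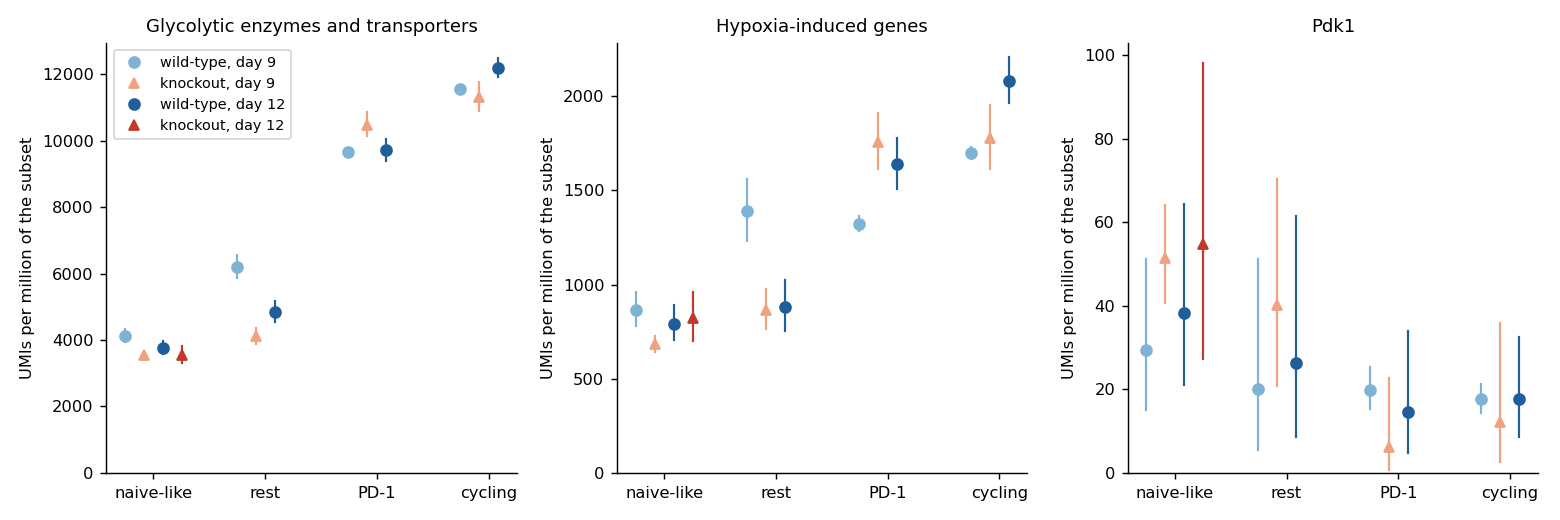
Sums of the glycolytic and hypoxia-induced genes and the level of Pdk1 (CPM) in CD8 T cell subsets of at least 10 cells, by library, with cells outside the named subsets as rest; bars are 95% Poisson intervals. The glycolytic sum is 3537 to 4133 in naive-like cells and 9655 or more in PD-1 and cycling cells, and Pdk1 is highest in naive-like cells.

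In monocytes or macrophages, which are not T cells, Hilpda and Vegfa were higher in the knockout. Of 34 members tested, these 2 rose (1.43% of all genes called, 0.883% higher), and 9 had an unadjusted p under 0.05. The median log2 fold change was 0.58 for hypoxia-induced genes and 0.19 for glycolytic genes, against 0.01 over all genes. Hilpda, at the levels given above, was lower in wild-type than in knockout at both days and rose by 1.19 ± 0.20 (edgeR adjusted p = 0.0170), with ratios of 3.23 (2.50 to 4.24) and 1.79 (1.65 to 1.94). Vegfa, also given above, rose by 1.34 ± 0.23 (0.0191), with ratios of 2.64 (1.55 to 4.89) and 2.50 (1.88 to 3.36). Both knockout libraries were above both wild-type libraries for each gene. The makeup of the class differed beside this: cells with at least 3 Arg1 UMIs were 1 of 236, 131 of 1712, 135 of 1710 and 144 of 886, and Spp1 Trem2 cells 6, 155, 41 and 46. Dissociation and stress genes had a median of 0.18 in the genotype fit, with 0 of 10 called and 4 at an unadjusted p under 0.05, and a median ratio of -0.05 at day 9 and 0.45 at day 12; their part in the result was not tested.

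Further members leaned the same way without a call. Slc2a1 was at 0.71 (adjusted p = 0.0599) with ratios of 1.85 (1.56 to 2.20) and 1.47 (1.34 to 1.63). Ankrd37 was at 0.72 (0.0515), Egln3 at 0.99 (0.0922), Adm at 1.65 (0.0923) and Ddit4 at 0.94 (0.105). Pgk1 did not keep a direction, at 0.687 (0.587 to 0.806) and 1.80 (1.63 to 1.99), as in other classes of these libraries. Neither Hilpda nor Vegfa was called with scaling to total UMIs, without the day term or without cells that held Arg1 UMIs; without the latter Hilpda was at 0.89 and Vegfa at 1.44. Vegfa was also not called with DESeq2, and Hilpda not with a looser marker gate. Within Arg1 cells at day 12 the hypoxia-induced median was -0.07, against 0.63 over the class. In other subsets at that day it stayed above 0. It was 1.42 within Spp1 Trem2 cells, 0.33 and 0.18 within monocytes marked by Ace and by Ly6c2, and 0.30 within cells high in Cxcl9 and Cxcl10. Cells outside the named subsets stood at 0.12. At day 9 the median was 0.40 over the class and 0.11 within Ace monocytes. It was -0.13 within cells high in Cxcl9 and Cxcl10 and -0.37 in cells outside the named subsets. Melanoma-marker UMIs were at 7.06, 5.18, 16.6 and 23.0 CPM in the class, lower in knockout than in wild-type at day 9 and higher at day 12.

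NK cells, cDC2 and other T cells had no member called between genotypes in edgeR or in DESeq2, with 1, 3 and 0 members at an unadjusted p under 0.05 (0.0379%, 0.372% and 0.248% of all genes called in edgeR). In NK cells the day 9 ratios were low for several members, with 9 of 17 glycolytic genes at least 1.5-fold lower against 11.3% of all genes. Slc2a3 was at 0.381 (0.207 to 0.668), Slc16a3 at 0.389 (0.222 to 0.654), Pgk1 at 0.275 (0.170 to 0.428) and Eno1 at 0.512 (0.457 to 0.573). At day 12 these stood at 1.08, 1.04, 1.34 and 1.24. In cDC2 at day 12, 5 of 10 hypoxia-induced genes were at least 1.5-fold higher in the knockout against 9.39% of all genes, with Hilpda at 2.65 (1.73 to 4.10) and Ero1l at 1.93 (1.15 to 3.26). The day 9 median of the same group in cDC2 was -0.38, and 0.46 with classes named by cluster.

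The third comparison was day 12 against day 9 over both genotypes. In monocytes or macrophages 4 of the 34 members were called, against 8.13% of all genes (3.8% higher, 4.32% lower): Hilpda, Adm and Ndrg1 rose and Pfkp fell, and 14 had an unadjusted p under 0.05. Adm was at 0.88, 1.22, 2.89 and 10.0 (2, 21, 43 and 91 UMIs), above both day 9 libraries in both day 12 ones, and rose by 2.87 ± 0.43 (edgeR adjusted p = 0.00353). Hilpda rose by 1.11 ± 0.20 (0.00906), although knockout day 9 and wild-type day 12 were alike at 86.9 and 81.0. Ndrg1, a stress gene linked to differentiation, was at 22.1, 43.7, 44.3 and 58.0 and rose by 0.66 ± 0.18 (0.0496). Pfkp was at 167, 211, 118 and 117 and fell by 0.67 ± 0.16 (0.0289), lower in both day 12 libraries. With DESeq2 Hilpda alone was called, with scaling to total UMIs Hilpda and Adm, and without the genotype term none.

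Aldoc fell in cDC2 by 1.199 ± 0.25 (adjusted p = 0.0484; 0.873% of all genes called, 0.415% lower), a call absent with DESeq2 and with classes named by cluster, where it was -0.45. No member was called by day in CD8 T cells, NK cells or other T cells in edgeR or DESeq2, with 4, 8 and 2 at an unadjusted p under 0.05 (0.777%, 0.114% and 0.692% of all genes called in edgeR). In NK cells 5 were called without the filter on low counts, 6 with a looser marker gate and 7 with classes named by cluster. Mif in NK cells was at 416, 345, 762 and 736, with both day 12 libraries above both day 9 ones, and at 0.96 ± 0.16 missed the threshold (adjusted p = 0.0811).

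Other genes of the pathway, from fixed lists, were counted beside the members. In monocytes or macrophages against other classes, 9 of 18 other HIF targets were higher and 5 lower, 5 of 7 pentose phosphate enzymes were higher and 1 lower, and 3 of 14 citric acid cycle enzymes were higher and 5 lower. Over all genes 31.9% were higher and 33.2% lower. Dissociation and stress genes were also higher there, 6 of 10 with a median of 1.39, and their part in the class difference was not tested. Between genotypes in the same class, 3 of 20 other HIF targets rose, against 0.883% of all genes: Bhlhe40, a transcriptional repressor, by 1.55 ± 0.19 (edgeR adjusted p = 0.00387), Hmox1, which degrades haem, by 1.36 ± 0.27, and Mxi1, an antagonist of Myc, by 1.18. By day, Hk3 fell by 1.38, Ldhb, the other lactate dehydrogenase subunit, by 1.32 and Tkt, the transketolase of the pentose phosphate pathway, by 0.60 in that class. Counted by list, 2 of 20 other HIF targets rose by day. Among other glycolytic isozymes 2 of 13 fell, among pentose phosphate enzymes 2 of 7 and among genes of pyruvate entry 1 of 7. Over all genes 3.8% rose and 4.32% fell.

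Tumour cells were almost absent after the sort. The melanoma gate held 6 cells, all in knockout day 9. In them Gapdh was at 10688, Hk2 at 385, Slc2a1 at 164, Pgk1 at 360, Vegfa at 185 and P4ha2 at 47.3 CPM. Slc2a3 had 1 UMI, or 3.64 CPM (0.092 to 20.3), too few to place it among the classes. Gapdh, Hk2, Slc2a1, Pgk1, Vegfa and P4ha2 lay above every library of the 5 tested classes. The Slc2a1 interval, 119 to 219, reached the highest of those values, 120.5 in monocytes or macrophages.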

How the data were processed

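Single-cell 3′ RNA sequencing was done on sorted CD45-positive cells of 4 libraries, 1 for each genotype and day. The deposited matrices hold UMI counts per gene and cell; the submitters' processing notes name Cell Ranger 2.0.2 and mm10, and other settings are not given in the sources used here. Library totals were 21448114, 33902064, 29662903 and 18783490 UMIs, and with 1 library a group the spread between tumours is not measured. Barcodes with at least 200 genes, at most 10% mitochondrial and at most 5% haemoglobin UMIs were kept. Scrublet's own threshold marked 3, 5, 1 and 15 barcodes, too few to have worked, so the barcodes with the highest scores were removed at 0.8% per 1000 barcodes (25, 112, 108 and 34), which left 10943 cells. A cell was given the class with the largest share of its markers detected, with at least 2 markers and a lead of 0.2 over the next class; 1342 cells stayed unnamed and 915 lay within 0.05 of that lead. The gate and the subset thresholds were set after the data were seen; of the cells in the 5 tested classes, 93.16% fell in the same class when classes were named by cluster.

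Counts were summed by class and library. For genotype and day, edgeR 4.0.16 (R 4.3.3) quasi-likelihood fits used day and genotype as terms, with 1 residual degree of freedom; the class contrast used 20 sums with library as a block and 12 residual degrees of freedom. Scaling was by TMM, genes with low counts were filtered, and adjusted p-values (Benjamini-Hochberg over all genes tested) of 0.05 or less were called. DESeq2 1.42.0 was an alternative. Members that passed the filter numbered 22 to 34 by class. Ratios within a day used total UMIs, at least 20 UMIs over the pair, exact conditional intervals, 0.5 added UMIs for medians and 1.5-fold as the limit for higher or lower. The genotype fits were tried on data simulated with a fixed spread and no difference in cell makeup, unlike these libraries. They recovered 56% to 73% of 2-fold and 94.8% to 100% of 4-fold changes by class, so a gene without a call may still differ. Python 3.11.15, scanpy 1.11.5, scipy 1.17.1 and numpy 2.4.6 were used. Members and lists were chosen with earlier results of these data known. A member was described in full where it had at least 20 UMIs and was called or among the largest changes of its role group, and other pathway genes where called. The alternatives were other scaling, no filter, DESeq2, cluster names, a stricter mitochondrial limit, doublets kept, a looser gate, single terms or libraries left out and single cell subsets.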

Additional observations from a re-analysis of the deposited data

Results flagged for a closer look

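Bnip3 in cDC2 went opposite ways on the 2 days. Its knockout over wild-type ratio was 0.512 (0.319 to 0.824) at day 9, from 41 and 36 UMIs, and 2.21 (1.55 to 3.17) at day 12, from 74 and 59 UMIs. Its levels were 57.5, 29.4, 33.1 and 73.2 counts-per-million in the order wild-type day 9, knockout day 9, wild-type day 12 and knockout day 12. With 1 library for each genotype and day, the difference between the days was not tested.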

How the results depend on the processing

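Numbers of called members. In the class contrast, leaving out 1 library in turn gave 7 to 10 calls in CD8 T cells (13 with all libraries), 5 to 7 in NK cells (8) and 5 to 9 in cDC2 (8), and scaling to total UMIs gave 5 in cDC2. With classes named by cluster, Bnip3 and Vegfa in CD8 T cells were at 0.20 and 0.28 in place of lower. The day term served as the block of the genotype fits, since both genotypes were sampled at each day. Without the day term, no member was called between genotypes in any of the 5 classes (0 in CD8 T cells and 0 in monocytes or macrophages). Genotype calls in CD8 T cells (6) numbered 2 with total UMIs, 10 without the filter on low counts, 3 with classes named by cluster, and 0 with DESeq2, with doublets kept and without naive-like cells. Those in monocytes or macrophages (2) numbered 0 with total UMIs, 8 without the filter, 1 with DESeq2, 6 with classes named by cluster, 1 with a gate lead of 0.1 and 0 without cells that held an Arg1 UMI.

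Day calls in monocytes or macrophages (4) numbered 2 with total UMIs, 1 with DESeq2, 2 with a gate lead of 0.1 and 0 without the genotype term. In cDC2 (1) there were 0 with DESeq2, classes named by cluster, the looser gate or no genotype term. In NK cells (0) there were 5 without the filter, 7 with classes named by cluster, 6 with the looser gate and 1 without the genotype term. CD8 T cells and other T cells (0 each) had 1 with classes named by cluster, and other T cells 1 with a mitochondrial limit of 5%.

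Median log2 ratios of knockout to wild-type. In CD8 T cells at day 9 the glycolytic median was -0.74 with all cells and -0.32 with classes named by cluster. It was 0.0673 within PD-1 cells, 0.0177 within cycling cells and -0.18 within naive-like cells. The hypoxia-induced median was 0.10 with cluster names (14 genes) and 0.13 within PD-1 cells (11 genes), against -0.73 with all cells (11 genes). With cluster names, the day 12 glycolytic and hypoxia-induced medians were 0.60 and 0.77 in other T cells and 0.29 and 0.18 in NK cells, and the day 9 hypoxia-induced median was 0.46 in cDC2 (-0.38 as gated). In monocytes or macrophages at day 9, the glycolytic median was 0.21 with cluster names, 0.15 without cells that held an Arg1 UMI, 0.15 within Ace cells, 0.0383 within Cxcl9 Cxcl10 cells, 0.0848 within Ly6c2 cells and 0.00601 in the rest. The hypoxia-induced median there was 0.11 within Ace cells, -0.13 within Cxcl9 Cxcl10 cells and -0.37 in the rest. At day 12 the glycolytic median was -0.00293 without cells that held an Arg1 UMI, -0.18 within cells with at least 3, 0.0451 within Ly6c2 cells and 0.74 within Spp1 Trem2 cells. The hypoxia-induced median was 0.32 without cells that held an Arg1 UMI, 0.33 within Ace cells, -0.0722 within Arg1 cells, 0.30 within Cxcl9 Cxcl10 cells, 0.18 within Ly6c2 cells, 1.42 within Spp1 Trem2 cells and 0.12 in the rest. The cause of each of these shifts was not tested. The 35 summary results were each compared over the settings tried, and the other 310 of these comparisons kept their direction and size. For fold changes of single genes, 797 comparisons were the same, 154 were weaker, as when a call was lost, and 2 were reversed. Of those between genotypes, 38 were the same and 42 weaker. Knockout day 12 held 57 CD8 T cells, 41 of them naive-like, which limits the precision there, most of all without naive-like cells.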
